A study of Mus musculus with 6 samples.

Results

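Potassium channel genes were taken as every gene name on the array that begins with Kcn followed by a letter, which gave 98 genes with 181 probes among 37074 gene names. Of these, 39 genes were measured well enough to be tested, meaning that on each of the 3 arrays of 1 group or of both, the scanner software flagged the gene's brightest probe as well above background. RNA came from osteoclasts grown for 5 days with the cytokine RANKL from the bone marrow of 3 *Ano1fl/fl* mice (control), in which *Ano1* is flanked by loxP sites but intact, and of 3 *Ctsk-Cre;Ano1fl/fl* mice (cKO), in which Cre recombinase under the cathepsin K promoter removes *Ano1* in cells that use this promoter. All 6 animals carry the floxed allele, only the cKO animals carry Cre, and a Cre-only group was not analysed here. The controls were littermates and the marrow donors were 6 to 8 weeks old. *Ano1* encodes a calcium-activated chloride channel, and the comparison asks which transcripts differ in osteoclasts from mice in which it was targeted.

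Potassium channels let potassium leave or enter the cell along its gradient and so set the membrane potential, which decides how strongly calcium and chloride are driven through their own channels. Voltage-gated channels open on depolarization, inward rectifiers and tandem-pore (K2P) channels conduct near rest, and calcium-activated channels open when intracellular calcium rises. Inward rectifier currents and calcium-activated potassium currents are known from osteoclasts and macrophages, and potassium flux also offsets the charge that proton secretion carries out of a resorbing osteoclast.

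The single *Ano1* probe did not rise well above background on any of the 6 arrays, so it gives no check of the labels, and every direction here is by the label of the array. Well above background were 33480 to 34951 of 59305 spots per array, and 51 to 53 of the potassium channel probes on control arrays and 54 to 64 on cKO arrays. Pearson's r across tested genes, which are not independent replicates, was 0.995 to 0.997 within and 0.947 to 0.951 between groups. On the cKO arrays 11 of 12 osteoclast markers were higher and 1 was lower, and their summed signal was 514000 to 580000 against 157000 to 170000 on control arrays, a direction opposite to the one the study describes for osteoclast genes of this genotype. Of 12 stromal and osteoblast markers 11 were higher and 1 lower (summed signal 56900 to 95100 against 2050 to 3070), of 8 B cell markers 7 were higher and 1 lower (31400 to 61600 against 8350 to 9960), and of 6 mast cell and basophil markers 5 were lower (903 to 3650 against 7010 to 9320). Of 10 neutrophil markers 2 were higher and 6 lower (235000 to 285000 against 332000 to 350000), and of 11 macrophage markers 2 were higher and 3 lower (563000 to 619000 against 536000 to 558000). Of 5 tested endothelial markers 1 was higher and 2 lower (2920 to 3520 against 6110 to 7720). Of 6 T and NK cell markers 1 was higher and 2 lower (1820 to 2180 against 3390 to 3690). Of 5 tested neuron and glia markers 1 was higher and 1 lower (7780 to 9260 against 14700 to 19600). Of 5 erythroid markers 4 were not well above background on any array, and the 1 tested was lower (2310 to 3930 against 5470 to 7170). Each sum takes in all markers of its list, and a few bright genes can carry it. In such cultures fewer cells of a type and less RNA per cell cannot be told apart, and the part of these cell types in the potassium channel differences was not tested.

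Among the 39 tested potassium channel genes, 7 were higher and 16 were lower on the cKO arrays (limma adjusted p under 0.05 over all genes tested). Of all 20645 genes tested, 23.4% were higher and 29.0% were lower, together 52.4%, so the 59% of potassium channel genes called lies near the background of this strongly split pair of groups. By a fitted fold of more than 2, 5 potassium channel genes were higher and 4 lower, where the array as a whole had 9.88% higher and 7.19% lower. These counts depend on how dim signals are treated. Among genes well above background on all 6 arrays they were 2 and 2, and with normexp background correction they were 1 and 0. The 3 cKO arrays lay wholly apart from the 3 control arrays for 24 of the 39 genes (61.5%), against 64.0% of all genes. The median log2 difference, cKO minus control, was -0.14 over the potassium channel genes and -0.06 over all genes tested, and it was -0.30 without control replicate 3.

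**Figure D1:**
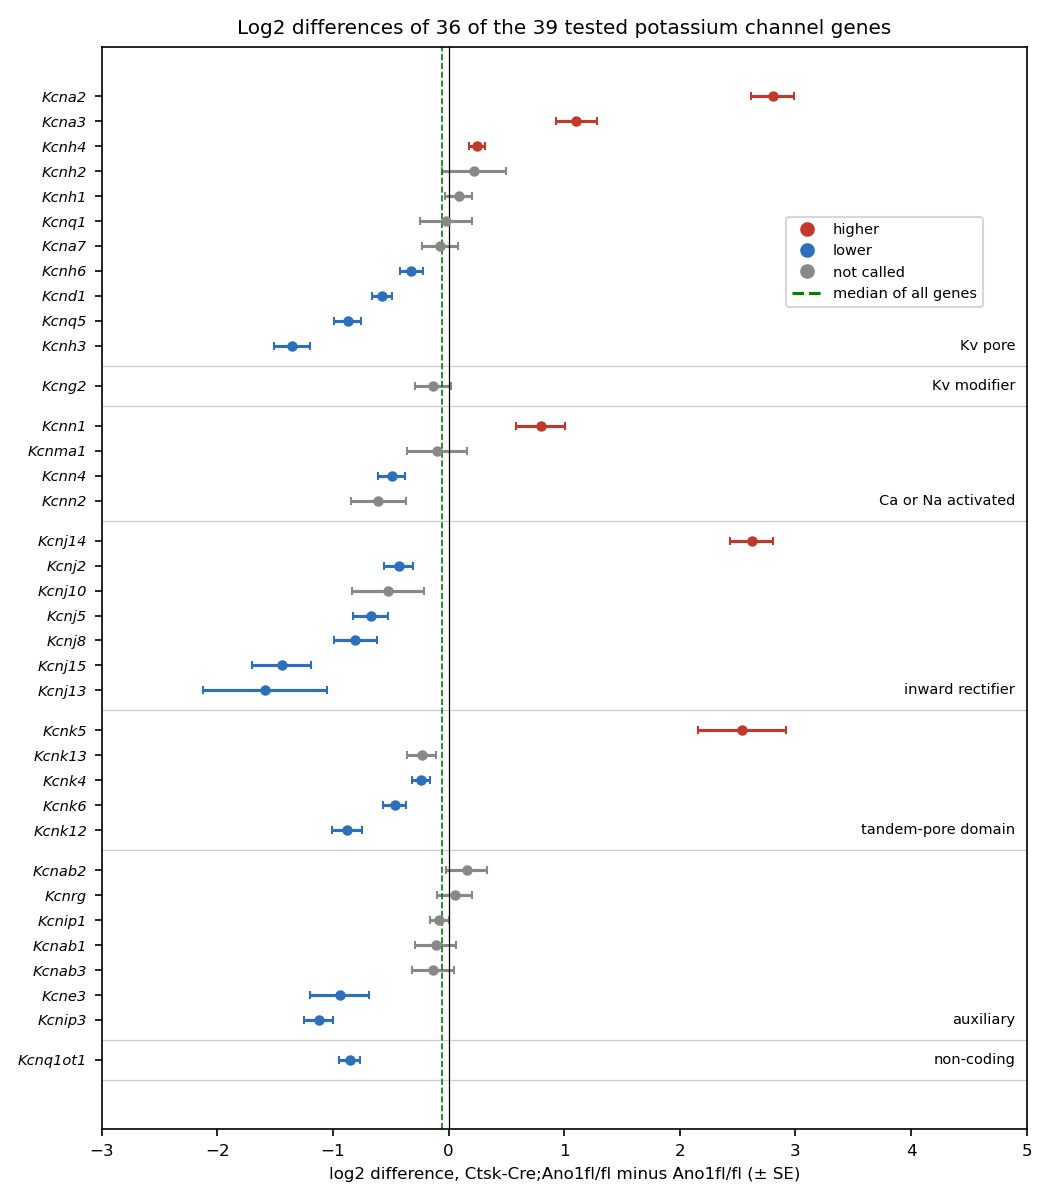
Log2 difference in signal (cKO minus control, horizontal axis) with its standard error for 36 of the 39 tested potassium channel genes, ordered within structural classes. Red points were higher and blue points lower at a limma adjusted p under 0.05, grey points were not called, and the dashed line is the median of all genes tested. Among the genes shown that were well above background on all 6 arrays, the differences run from -1.36 (*Kcnh3*) to 2.62 (*Kcnj14*), and the points of *Kcna2*, *Kcnk5*, *Kcnj15*, *Kcnj13* and *Kcnj8* rest in part on signals not well above background.

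By structural class, the voltage-gated pore genes gave 4 higher and 4 lower of 14 tested (30 on the array), the inward rectifiers 1 higher and 5 lower of 7 tested (15 on the array), and the tandem-pore channels 1 higher and 3 lower of 5 tested (14 on the array). The calcium- or sodium-activated channels gave 1 higher and 1 lower of 4 tested (8 on the array), and the auxiliary subunits gave none higher and 2 lower of 7 tested (17 on the array). The voltage-gated rises include genes, among them *Kcna2*, that passed the filter only through the cKO group in which they are bright. The same holds for *Kcnk5*, the 1 tandem-pore rise. Among the inward rectifier falls, *Kcnj15* passed only through the control group. Of all genes tested, 23.4% were higher and 29.0% lower, and no class was tested against another or against all genes. Of the 10 electrically silent voltage-gated modifier genes only *Kcng2* was tested.

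**Figure D2:**
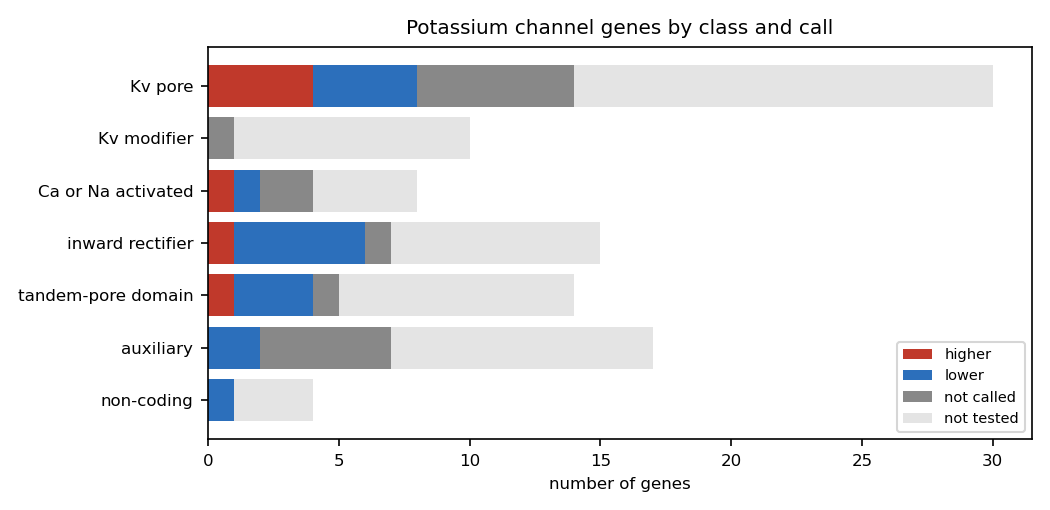
Number of potassium channel genes in each structural class (horizontal bars), split into those higher or lower on the cKO arrays, those tested and not called, and those not tested because their brightest probe did not reach this level on every array of a group. The largest class, the voltage-gated pore genes, holds 30 genes, of which 16 were not tested.

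Several members are covered by more than 1 probe, and the probe decides what is seen, so the probe sequences are shown for the 4 genes with tested probes on both sides of 0 of which at least 1 was called higher. Each line gives the first 30 of the 60 bases of a probe, 5′ to 3′, as the scanner files list them, without capitals because no motif is marked. The coordinates are those of the whole probe in mouse build mm9, and the files do not state whether a probe lies in a coding exon, an intron or a UTR.
Kcnma1 probe on a RefSeq transcript, chr14:24126279-24126338, minus strand: tgggtgggcagtcaatgtatacatgtaaat
Kcnma1 probe on a cDNA clone, chr14:24344084-24344143, minus strand: gccagcatctccttatccctgtcccccaat
Kcnq5 probe on a RefSeq transcript, chr1:21389067-21389126, minus strand: aggaagttacctaaaacatgtttgccacgt
Kcnq5 probe on an Ensembl transcript, chr1:21567995-21568054, minus strand: ggaccagaaaagaaatttccccctgacaca
Kcnh6 probe on a RefSeq transcript, chr11:105888964-105889023, plus strand: ctccagtgacctggccttgtttcctgaaac
Kcnh6 probe on a predicted RefSeq transcript, chr11:105894236-105894295, plus strand: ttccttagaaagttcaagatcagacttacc
Kcnn1 probe on a RefSeq transcript, chr8:73376967-73378580, minus strand: gtccactgtcatcttgcttggccttgtcat
Kcnn1 probe on a cDNA sequence, chr8:73367057-73367116, minus strand: aatgtatacacagtaagacgtggggtggca

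Among the voltage-gated channels, *Kcna2*, the Shaker-type channel Kv1.2, was not well above background on the control arrays, where it read 1.70 on each, and read 4.08, 4.80 and 4.63 on the cKO arrays. Set against the lowest signal that counts as well above background on each control array, this is at least 1.45-fold higher (limma adjusted p = 0.000104), a low bound because the cKO signals themselves lie close to the background. Folds given as "at least" are built this way throughout, because a signal not well above background gives only a bound. The p-value beside such a fold is that of the fit to the signals as read and does not test the bound, and a gene of this kind passed the filter only through the group in which it is bright. *Kcna3*, the Kv1.3 channel of lymphocytes and macrophages, was measured on all 6 arrays. Its log2 signals were 5.13, 5.76 and 5.41 on control and 6.55, 6.37 and 6.69 on cKO arrays, without overlap. The rise was 2.15-fold (log2 difference 1.11 ± 0.17 SE, limma adjusted p = 0.00285). *Kcna3* is known from lymphocytes, and on the same arrays 7 of 8 B cell markers were higher, while of 6 T and NK cell markers 1 was higher and 2 were lower (summed signal 1820 to 2180 against 3390 to 3690 on control arrays). Their part in the *Kcna3* value was not tested.

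*Kcnh3*, an ether-a-go-go family channel of the Elk group known mainly from brain, fell. It read 7.53, 7.88 and 8.02 on the control and 6.37, 6.32 and 6.67 on the cKO arrays, 2.56-fold lower (log2 difference -1.36 ± 0.16 SE, limma adjusted p = 0.000838). Of its family, *Kcnh4*, another Elk channel, rose slightly (log2 difference 0.25, limma adjusted p = 0.0273), and *Kcnh6*, of the Erg group, fell slightly on its brightest probe (-0.32, limma adjusted p = 0.0342). *Kcnh1* (Eag) and *Kcnh2* (Erg) were not called, with 95% intervals of the log2 difference of -0.20 to 0.37 and -0.45 to 0.89. The *Kcnh4* call was lost without any 1 array other than control replicate 1 (limma adjusted p up to 0.0839), and the *Kcnh6* call without any 1 array other than cKO replicate 2 (up to 0.0999).

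The 2 tested *Kcnh6* probes, of 3 on the array, differed in sign and were both called. The brightest read 7.50, 7.61 and 7.59 on control and 7.12, 7.42 and 7.19 on cKO arrays, whereas the tested probe on the RefSeq transcript, at base 2483, had means of 4.17 and 5.14 and was well above background on 1 control and 3 cKO arrays. The fitted log2 difference of that second probe was 0.97 ± 0.26 SE (limma adjusted p = 0.0192 over the 31848 probes tested singly), resting in part on control signals at background. The sign of the fitted difference for *Kcnh6* depends on the probe, and the mean over its 3 probes, of which 1 stayed at background throughout, was 0.21.

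Channels of the KCNQ family, several of which carry the M current that steadies the membrane near rest, also differed by probe. *Kcnq5* (Kv7.5) fell on its brightest probe, from 8.38, 8.06 and 8.25 to 7.23, 7.50 and 7.33 (log2 difference -0.87 ± 0.11 SE, limma adjusted p = 0.00136). The *Kcnq5* probe at base 6337 of the RefSeq transcript read higher on the cKO arrays, going from 1.69, 4.49 and 2.57, of which 1 array was well above background, to 5.37, 4.86 and 5.77 on the cKO arrays. Its fitted log2 difference of 2.42 ± 0.69 SE (limma adjusted p = 0.0256 over all probes) rests in part on control signals at background, so its size is not measured. The other 3 *Kcnq5* probes were well above background on at most 1 array of a group.

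*Kcnd1*, the A-type channel Kv4.1, read 8.81, 9.04 and 8.99 on control and 8.34, 8.45 and 8.32 on cKO arrays on its brightest probe. That is a fall by a log2 difference of -0.58 ± 0.09 SE (limma adjusted p = 0.00252). A second *Kcnd1* probe gave 0.12 ± 0.09 SE and was not called (limma adjusted p = 0.334 over all probes). *Kcna7* and *Kcnq1* were not called, with log2 differences of -0.07 and -0.02. *Kcng2*, the only silent subunit tested, was not called either (log2 difference -0.13, 95% interval -0.51 to 0.24), while the mean over its 2 probes, 0.42, rests on a second probe that stayed at background on all 6 arrays.

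**Figure D3:**
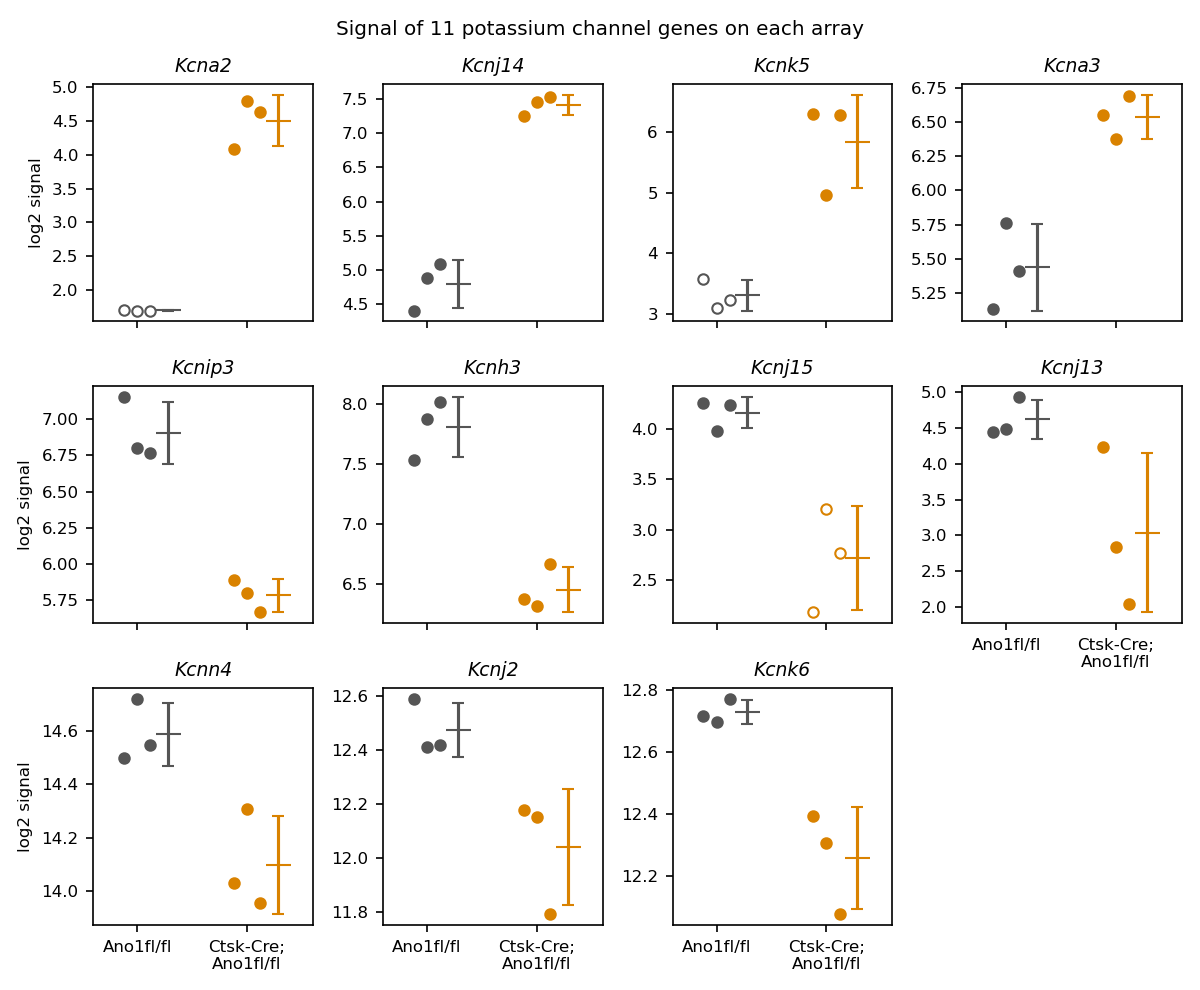
Log2 signal on each array (points) with the group mean and SD (bars) for 11 potassium channel genes: 8 with a fitted change of more than 2-fold, which for *Kcna2*, *Kcnk5*, *Kcnj15* and *Kcnj13* is set against signals not well above background, then *Kcnn4*, *Kcnj2* and *Kcnk6*. Open points mark groups in which no array was well above background, and in the cKO group *Kcnj13* was well above background on 1 of 3 arrays. The vertical axes differ between panels and do not start at 0. In every panel the groups do not overlap, as for 64.0% of all genes tested, and 8 of the panels were chosen because their change was called.

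Calcium-activated channels couple membrane potential to intracellular calcium. *Kcnn4*, the intermediate-conductance channel KCa3.1 of macrophages and T cells, read 14.50, 14.72 and 14.55 on control and 14.03, 14.31 and 13.96 on cKO arrays. It was 1.41-fold lower (log2 difference -0.49 ± 0.12 SE, limma adjusted p = 0.0142), with no overlap. All 3 of its probes differed in the same direction, by -0.52, -0.49 and -0.31, and the last was not called (limma adjusted p = 0.189 over all probes).

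*Kcnma1*, the large-conductance BK channel, has 6 probes, of which 2 were tested. The brightest, on the cDNA clone, read 7.21, 6.96 and 6.24 on control and 6.50, 6.71 and 6.88 on cKO arrays and was not called (log2 difference -0.10, 95% interval -0.73 to 0.52). The probe at base 5689 of a RefSeq transcript was not well above background on any control array (1.70, 2.55 and 2.95) and was on all cKO arrays (5.53, 5.96 and 5.92). It was at least 3.57-fold higher (limma adjusted p = 0.000343 over all probes). The other 4 *Kcnma1* probes were not well above background on any array. The call for the gene therefore depends on the probe, and the mean log2 difference over its 6 probes was 0.63.

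The BK auxiliary subunit gene *Kcnmb4*, chosen here after its values were seen, also differed by probe. Its brightest probe, at base 22 of the transcript, was well above background on 2 arrays of each group and so was not tested. Its other probe, at base 892 and chr10:115854977-115855036 of mm9, read 1.83, 1.70 and 2.54 on control arrays, not well above background, and 5.65, 4.51 and 5.28 on cKO arrays. That is at least 2.26-fold higher (limma adjusted p = 0.000644 over all probes). *Kcnmb1*, the smooth muscle BK subunit, did not rise well above background on any array, while 4 of 6 tested smooth muscle and pericyte markers were higher on the cKO arrays (summed signal of the 8 markers 35700 to 42200 against 20900 to 22800). Their part in the BK values was not tested.

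The small-conductance channel gene *Kcnn1* (SK1) rose on its brightest probe, from 4.75, 4.85 and 5.33 to 5.74, 6.10 and 5.48 (log2 difference 0.80 ± 0.21 SE, limma adjusted p = 0.0207). Its other tested probe fell by 0.83 ± 0.10 SE on the log2 scale (limma adjusted p = 0.000842 over all probes), so both signs were called for this gene. The rise was also lost without control replicate 1 or 2 or cKO replicate 1 or 2 (limma adjusted p = 0.0647, 0.0685, 0.0523 and 0.0515). *Kcnn2* (SK2) was lower on every cKO array than on any control array, by a log2 difference of -0.61, and missed the threshold (limma adjusted p = 0.0725).

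**Figure D4:**
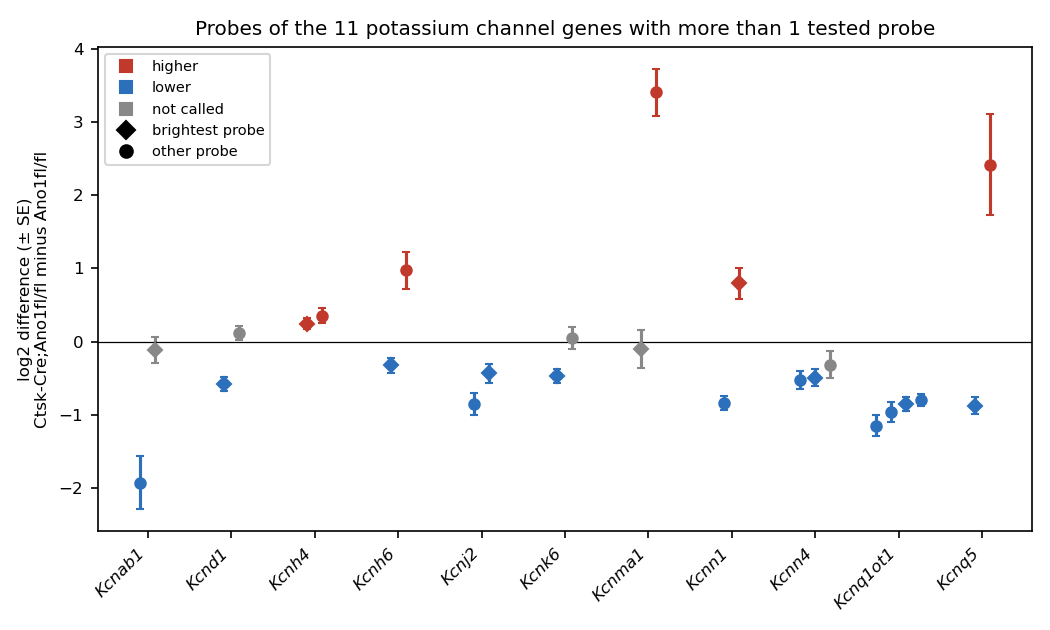
Log2 difference (cKO minus control, vertical axis) with its standard error for each tested probe of the 11 potassium channel genes that have more than 1. Diamonds are the brightest probe of a gene and circles its other probes, coloured by call at a limma adjusted p under 0.05. *Kcnma1*, *Kcnq5*, *Kcnh6*, *Kcnn1*, *Kcnd1* and *Kcnk6* have probes on both sides of 0, while the 4 *Kcnq1ot1* probes lie together between -1.15 and -0.79.

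Tested singly, 54 probes of 40 potassium channel genes gave 12 higher, 22 lower and 20 not called, where 52.4% of all probes were called. Of the 11 genes with more than 1 tested probe, 6 had probes that differed in sign. In *Kcnab1*, an auxiliary subunit of voltage-gated channels, the brightest probe gave -0.11 ± 0.18 SE and a probe on an Ensembl transcript went from well above background on all control arrays to none of the cKO arrays (at least 1.44-fold lower, limma adjusted p = 0.00522 over all probes).

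Inward rectifiers, which conduct near rest, were lower in 5 of 7 tested genes, where 29.0% of all genes tested were lower. Of the 5, 3 (*Kcnj13*, *Kcnj15* and *Kcnj8*) rest in part on cKO signals not well above background. *Kcnj14* (Kir2.4) was the 1 that was higher. It read 4.40, 4.87 and 5.09 on control and 7.25, 7.46 and 7.53 on cKO arrays, all well above background. The rise was 6.16-fold (log2 difference 2.62 ± 0.19 SE, limma adjusted p = 0.000133). Its log2 difference ran from 2.43 to 2.77 with any 1 array left out, and was 1.77 in the authors' table and 1.37 with normexp background correction. A second *Kcnj14* probe, at base 1230 of the transcript, stayed at background on all 6 arrays, so the rise rests on 1 of 2 probes, and the mean log2 difference over both was 1.32. The probe lies at chr7:53071864-53071923 of mm9.

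*Kcnj2*, the strong inward rectifier Kir2.1 recorded in osteoclasts, read 12.59, 12.41 and 12.42 on control and 12.18, 12.15 and 11.79 on cKO arrays. It was 1.35-fold lower (log2 difference -0.43 ± 0.13 SE, limma adjusted p = 0.0282), and its second probe gave -0.85 ± 0.15 SE (limma adjusted p = 0.00467 over all probes). The groups did not overlap on either probe. The call on the brightest probe was lost without control replicate 1, 2 or 3 (limma adjusted p = 0.0832, 0.0595 and 0.058).

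*Kcnj13* (Kir7.1) read 4.44, 4.49 and 4.93 on the control arrays and 4.23, 2.84 and 2.04 on the cKO arrays, of which 1 was well above background. The fitted log2 difference of -1.59 ± 0.53 SE (limma adjusted p = 0.0469) thus rests in part on signals at background and ran from -2.19 to -1.09 with 1 array left out. The call was lost without any 1 array other than cKO replicate 1 (limma adjusted p up to 0.123, against 0.00366 without cKO replicate 1). *Kcnj15* (Kir4.2) read 4.26, 3.98 and 4.24 on control arrays and was not well above background on any cKO array (2.18, 3.20 and 2.77), at least 1.11-fold lower (limma adjusted p = 0.00457).

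*Kcnj5*, a G protein-gated subunit (Kir3.4), fell by 0.67 ± 0.15 SE and *Kcnj8*, the pore of an ATP-sensitive channel (Kir6.1), by 0.81 ± 0.19 SE on the log2 scale (limma adjusted p = 0.0108 and 0.0121). Both kept their call with any 1 array left out. *Kcnj10* (Kir4.1) read 10.02, 8.88 and 9.25 on control and 9.12, 8.94 and 8.52 on cKO arrays, with overlap, and was not called (log2 difference -0.53, 95% interval -1.28 to 0.23).

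Tandem-pore channels carry background potassium current. *Kcnk5*, the acid-sensitive channel TASK-2, was not well above background on the control arrays (3.59, 3.10 and 3.23) and read 6.29, 4.96 and 6.28 on the cKO arrays. It was at least 3.66-fold higher (limma adjusted p = 0.00231), and cKO replicate 2 read lower than the other cKO arrays. *Kcnk6*, the TWIK-2 channel that carries potassium efflux in macrophages, read 12.71, 12.70 and 12.77 on control and 12.39, 12.31 and 12.08 on cKO arrays, 1.38-fold lower (log2 difference -0.47 ± 0.10 SE, limma adjusted p = 0.00854). Its second probe gave 0.05 ± 0.15 SE and was not called.

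*Kcnk13*, the THIK-1 channel of microglia and other myeloid cells, read 12.47, 12.25 and 12.16 on control and 12.21, 12.12 and 11.85 on cKO arrays. The groups overlapped and it was not called (log2 difference -0.23, 95% interval -0.54 to 0.08). Its relative *Kcnk12* (THIK-2) fell from 5.47, 5.62 and 5.59 to 4.70, 4.43 and 4.91 (log2 difference -0.88 ± 0.13 SE, limma adjusted p = 0.00232). *Kcnk4*, the mechanosensitive TRAAK channel, was slightly lower (-0.24, limma adjusted p = 0.045), and this call was lost without any 1 array other than control replicate 3 (limma adjusted p up to 0.133).

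Of the auxiliary subunits, 2 of 7 tested were called. *Kcnip3*, a calcium-binding protein that partners A-type channels and also acts as the transcriptional repressor DREAM, read 7.15, 6.80 and 6.77 on control and 5.89, 5.79 and 5.66 on cKO arrays. It was 2.18-fold lower (log2 difference -1.12 ± 0.13 SE, limma adjusted p = 0.000779). *Kcne3*, a single-pass subunit that holds KCNQ1 channels open, read 5.98, 5.69 and 5.75 on control and 5.29, 4.29 and 5.00 on cKO arrays, 1.92-fold lower (log2 difference -0.94 ± 0.26 SE, limma adjusted p = 0.0228). The *Kcne3* call was lost without control replicate 1, 2 or 3 (limma adjusted p = 0.0711, 0.0518 and 0.0547).

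The cytoplasmic beta subunit gene *Kcnab2* read 5.03, 5.29 and 4.82 on control and 5.10, 5.52 and 5.00 on cKO arrays and was not called (log2 difference 0.16, 95% interval -0.28 to 0.59). *Kcnab3*, *Kcnip1* and *Kcnrg*, a regulator of channel assembly, were not called, with log2 differences of -0.14, -0.08 and 0.05. *Kcnq1ot1*, a long non-coding RNA read antisense from within the imprinted *Kcnq1* gene, fell from 11.33, 11.21 and 11.30 to 10.37, 10.58 and 10.32. It was 1.81-fold lower (log2 difference -0.86 ± 0.09 SE, limma adjusted p = 0.00063), and its 4 tested probes gave -1.15, -0.96, -0.86 and -0.79, each called.

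Of the 59 genes not tested, 47 had no probe well above background on any array. *Kcnj1* (ROMK), *Kcnk10* (TREK-2), *Kcnn3* (SK3) and *Kcns1*, a silent subunit, chosen after their values were seen, were well above background on no control array and on 2 cKO arrays. Their log2 signals on the control arrays were 1.69 to 1.73, 1.76 to 2.55, 3.17 to 3.89 and 3.00 to 3.73. On the cKO arrays they read 4.11 to 5.82, 4.14 to 4.36, 4.02 to 4.63 and 3.90 to 5.40. That they were higher on each cKO array than on any control array follows in part from this choice. Of all genes tested, 64.0% did not overlap between groups. Other untested genes went another way: *Kcnj9*, *Kcnk3* and *Kcnmb2* were well above background on 1 control array and no cKO array, *Kcne1* and *Kcnk16* on 1 control and 2 cKO arrays. None of these genes was tested, and no fold is given for them.

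Potassium is also moved by pumps and cotransporters, which were read from a fixed list of 47 genes, of which 26 were tested. Of these 6 were higher and 5 lower. That is 42.3% called beside 52.4% of all genes tested, and this difference was not tested. The chloride-coupled carriers of the SLC12 family held 4 of the 6 rises. *Slc12a5* (KCC2), which exports potassium with chloride, read 7.38, 7.50 and 7.40 on control and 9.34, 9.81 and 9.41 on cKO arrays (log2 difference 2.09 ± 0.13 SE). *Slc12a2* (NKCC1), which imports sodium, potassium and chloride, rose from 8.78, 8.73 and 8.61 to 10.01, 10.09 and 10.10 (1.36 ± 0.08 SE), and *Slc12a8*, a less studied relative, had a fitted log2 difference of 1.63 ± 0.16 SE with only 1 control array well above background, and of 0.49 with normexp background correction. Their limma adjusted p were 9.49e-05, 5.94e-05 and 0.000491.

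*Slc12a7* (KCC4) and the sodium pump beta subunit gene *Atp1b1* rose by 0.88 and 0.76 on the log2 scale, and the lysosomal potassium channel gene *Tmem175* by 0.23. Among the falls, *Slc12a9* had a log2 difference of -0.84 ± 0.10 SE and *Tmem38a*, a potassium-permeable channel of the endoplasmic reticulum, -0.68 ± 0.15 SE (limma adjusted p = 0.00103 and 0.0104). *Fxyd5*, a sodium pump regulator, and *Slc24a3*, a potassium-dependent sodium-calcium exchanger, fell by 0.54 and 0.39.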

How the data were processed

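The authors deposited 6 Agilent scanner text files (Agilent Feature Extraction 10.7.1.1 per the labels), whose processed signal intensity is already background-subtracted, and a table of the authors' values that equals the median signal intensity. Probe coordinates are those of mm9 per the file headers. Spots flagged as outliers were set to missing, spots averaged per probe, log2 intensities quantile normalized, and the brightest probe taken for each gene name. Genes were compared with limma 3.58.1 in R 4.3.3 and p-values adjusted by Benjamini-Hochberg over the 20645 genes tested. All 6 arrays lay on 1 slide and were scanned together, and no spot was saturated. The number of arrays limits the precision: 3 against 3 allows no exact two-sided permutation p below 0.1. Of the 181 probes, 156 matched a RefSeq accession in the GRCm38.p6 table and 0 changed symbol. The script was tested on simulated data. The members and lists were chosen with earlier results of these data known. Named with all values were genes with a called, fitted change over 2-fold, the 2 brightest of each class, channels known from osteoclasts or macrophages, and genes whose probes differ in sign, together 24, and from the list of pumps and carriers the 3 strongest rises and falls; other members are named beside them. A few genes that enter the counts are not reported here by name.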

Additional observations from a re-analysis of the deposited data

How the results depend on the processing

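Of the 23 calls, 22 kept their direction and threshold with 75th percentile scaling, 17 with the mean of all probes, 18 with the methods' t-test and 16 to 19 with 1 array left out. The replicate numbers are not said to pair the arrays. Deviations from the group mean correlated at 0.0044, -0.06 and -0.08 between arrays of the same number, which does not decide whether they were paired. With the replicate block 19 calls were kept (6 higher, 14 lower over all members), lost being those of *Kcnh4*, *Kcnj13*, *Kcnk4* and *Kcnn1*. Members higher by more than 2-fold numbered 1 with normexp background correction, 3 with the authors' table, 9 with no filter on dim probes, 2 with a filter on all 6 arrays and 8 by single probes. Members lower by more than 2-fold numbered 8 with no normalization, 0 with normexp (where the offset of 50 compresses dim signals), 1 with the authors' table, 2 with the filter on all 6 arrays and 10 at a fold of 1.5. Higher at any fold were 4 with that filter and 12 single probes. The median log2 difference was -0.36 with no normalization, where that of all genes moved from -0.06 to -0.30, and -0.0029 with no filter. With an array left out, the counts ran from 5 to 6 higher, 11 to 15 lower, 4 to 5 and 3 to 5 beyond 2-fold, and the median from -0.30 to -0.15. Potassium handling genes higher were 10 with no filter, and 5 to 6 higher and 4 to 5 lower with an array left out. Signs turned with the mean of all probes, which takes in probes not well above background on any array for all of these genes but *Kcnd1*, for *Kcnd1* (0.10), *Kcng2* (0.42), *Kcnh6* (0.21), *Kcnma1* (0.63) and *Kcnq5* (0.43), for *Kcnab2* with no normalization (-0.024), and, both not called, for *Kcnab2* without cKO replicate 2 (range with an array left out -0.00069 to 0.28) and *Kcnma1* without control replicate 1 (-0.38 to 0.10). Beyond the filters and probe choices, which change the genes tested, the cause was not tested.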
